A study of Capra hircus with 8 samples.

Results

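Molecular chaperones and cold-inducible RNA-binding proteins were followed by RNA sequencing in goat skin. The genes were chosen by name alone. They are all genes of the first deposited count table whose symbol begins with HSPA, HSPB, HSPD, HSPE, HSPH, HSP90 or DNAJ, together with CIRBP and RBM3. The choice gave 71 genes of 18815 in that table, and 65 of the 71 had enough reads to be tested. The skin came from cashmere goats, a type of Capra hircus kept for its fine undercoat, and from milk goats. Both were sampled in months 3, 6, 9 and 12, with 1 library for each breed in each month and 8 libraries in all. The labels give no treatment and no genotype, and they list the month as an age although the design speaks of different months, so month of the year and month of life cannot be told apart. Whether a library held RNA of 1 animal or of several is not stated, and the p-values given here cover the spread among the 8 libraries and nothing beyond them.

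Chaperones bind proteins that are not yet folded or have lost their fold. HSP70 proteins (HSPA genes) hold exposed stretches of a client in a cycle of ATP hydrolysis, J proteins (DNAJ genes) deliver clients and start that hydrolysis, and HSP110 proteins (HSPH1, HSPA4 and HSPA4L) release the spent nucleotide. HSP90 acts later, on nearly folded clients such as kinases and steroid receptors, while small heat shock proteins (HSPB genes) hold unfolded proteins without using ATP, and HSPD1 with its lid HSPE1 encloses proteins inside mitochondria. Heat raises many of these genes through the factor HSF1. CIRBP and RBM3 are RNA-binding proteins known in mammalian cells to rise with mild cooling, and skin is the organ most exposed to changes of outside temperature.

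Library totals were 7480053 to 8718429 reads in cashmere goats and 11333734 to 13899750 in milk goats, so that 3 reads, the most that a count of 0 allows, stood for 0.231 to 0.395 counts per 1000000 reads (CPM). CPM values below are scaled by TMM factors, which correct for a few genes taking much of a library. The factor was 0.783 for milk goats at month 9, where TCHH (trichohyalin of the inner root sheath) took 13.0% of reads, and 0.989 to 1.13 elsewhere. Epidermal markers, which define the labelled tissue, were high in all libraries: 10 of 11 were listed, with a summed level of 40270 to 46390 CPM in cashmere goats and 40580 to 68280 CPM in milk goats. Of all reads, the chaperone and cold-inducible genes held 1.17%, 1.15%, 1.16% and 1.11% in the cashmere libraries of months 3, 6, 9 and 12, against 1.32%, 1.32%, 1.89% and 1.43% in milk goats. The share was highest in the milk goat library of month 9, with an exact binomial (Clopper-Pearson) 95% interval of 1.88% to 1.89% that covers counting error only. In bulk tissue, fewer cells of a type and less RNA per cell cannot be told apart.

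Per transcript length, the scale on which genes can be compared (FPKM, fragments per kilobase and per 1000000 mapped, as the authors computed it), HSP90AA1, the stress-inducible cytosolic HSP90, was the most abundant of the 71 genes with a mean of 718 FPKM over the 8 libraries and a range of 481 to 1248. HSP90AB1, the constitutive cytosolic form, followed at 499 (354 to 922 FPKM), and HSPB1, the small heat shock protein HSP27, at 420 (292 to 500.0 FPKM). The ranges of these 3 genes overlapped. HSP90B1, the HSP90 of the endoplasmic reticulum, averaged 255 FPKM, HSPA8, the constitutive HSP70, 151 FPKM, and HSPA5, the HSP70 of the endoplasmic reticulum also called BiP, 128 FPKM. The next in order were RBM3 at 76.9, DNAJC21, a J protein of cytoplasmic ribosome assembly, at 65.2, HSPA2, an HSP70 best known from sperm development, at 56.0, and DNAJB1, the main heat-induced J protein, at 54.3 FPKM. CIRBP averaged 32.8 FPKM. At the other end, DNAJB3, DNAJB7, DNAJB8, DNAJC22, DNAJC5B and DNAJC5G had 0 to 8 reads in any library and were not tested.

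**Figure D1:**
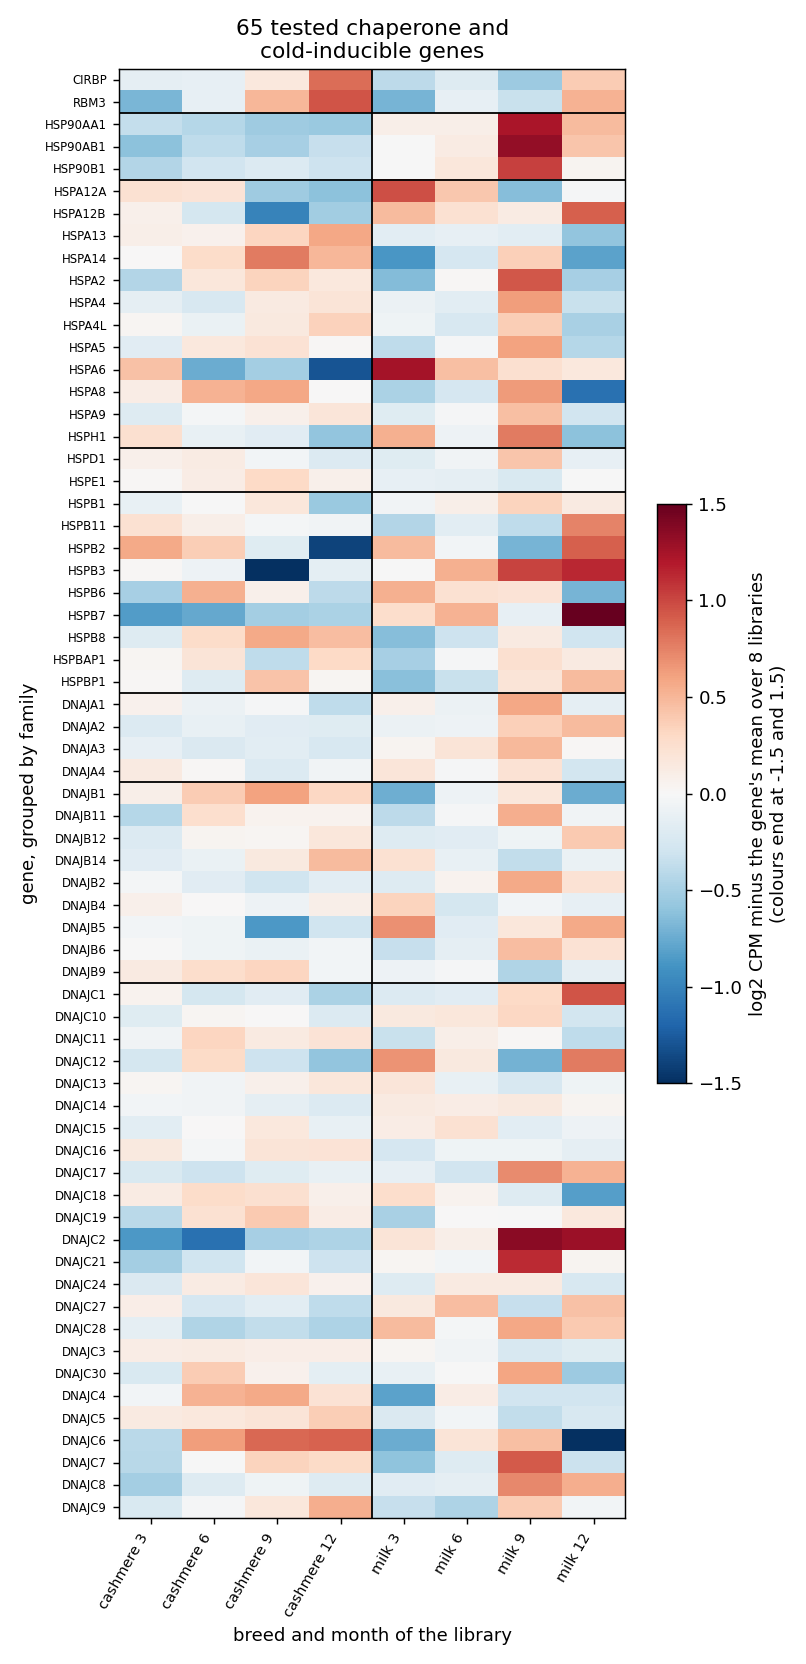
Heat map of the 65 tested genes (down the page, by family) in the 8 libraries (across, cashmere goats left of milk goats, months 3 to 12). Colour gives log2 CPM minus the gene's mean over the 8 libraries, red above and blue below. The 3 HSP90 genes are above their means in milk goats at month 9, and CIRBP and RBM3 are above theirs in both libraries of month 12.

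The first comparison asked which of these genes differed between the breeds over the 4 months. In cashmere goats DNAJC2 was lower and HSPA14 higher than in milk goats, and no other of the 65 genes passed the test. In human cells the products of these genes are known as partners in 1 machine, the ribosome-associated complex, in which the J protein DNAJC2 and the HSP70 protein HSPA14 receive chains as they leave the ribosome. The 2 calls are 3.08% of 65, against 4.79% of all 14085 genes tested (675 genes), a share below the background, with 1 gene higher (1.47% of all genes were) and 1 lower (3.32% of all genes were). At an unadjusted p under 0.05 stood 20 of 65 (30.8%), against 26.9% of all genes. The median log2 fold change of the 65 genes was -0.02, beside 0.03 for all genes, and 32 had a positive one (49.2%, against 52.8% of all genes).

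DNAJC2 (gene4541) had 83.9, 70.5, 108 and 111 CPM in cashmere goats at months 3, 6, 9 and 12, against 175, 163, 391 and 374 CPM in milk goats. Every cashmere library was below every milk library, and the milk libraries of months 9 and 12 were the highest. The means were 93.5 ± 19.7 CPM in cashmere goats and 276 ± 123 CPM in milk goats (SD, n = 4 each), and the log2 fold change was -1.47 ± 0.18 (SE; edgeR quasi-likelihood test with Benjamini-Hochberg adjustment, adjusted p = 0.0243). HSPA14 (gene13108) had 50.8, 61.3, 86.5 and 71.3 CPM in cashmere goats, against 27.5, 42.5, 64.7 and 28.9 CPM in milk goats. It was higher in cashmere goats in each of the 4 months, but the breeds overlapped, since milk goats at month 9 exceeded cashmere goats at months 3 and 6. The means were 67.5 ± 15.2 CPM in cashmere goats and 40.9 ± 17.2 CPM in milk goats, with a log2 fold change of 0.78 ± 0.17 (edgeR adjusted p = 0.0479). The second deposited count table, which uses another gene set, gave -1.34 for DNAJC2 (edgeR adjusted p = 0.0189) and 0.79 for HSPA14 (0.0433). With RLE scaling factors in place of TMM, HSPA14 missed the threshold (0.77, edgeR adjusted p = 0.0525), and the calls were DNAJC2 and HSPA6, both lower.

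The second table did not list DNAJB6, HSPB7 or HSPE1 by symbol and held too few reads of HSPB3. The other 61 of the 65 genes were tested, and the breed fold change had the other sign in that table for 16 of them. Among these 16, 7 were at 0.3 or more in either direction in the first table: DNAJA2, DNAJA3, DNAJB2, DNAJC11, DNAJC12, DNAJC17 and DNAJC6. The others of the 16 were DNAJC15, DNAJC24, DNAJC30, HSPA4, HSPA4L, HSPA9, HSPB11, HSPB6 and HSPD1. For some genes below, but not for all, the second table is given beside the first. DNAJA1, DNAJA2, DNAJC24, DNAJC8, HSPA4 and HSPA8 have several entries there, and the entry with the most reads was used for each.

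Both calls rested on having all of months 3, 6 and 9. The edgeR adjusted p of DNAJC2 was 0.0846, 0.0935 and 0.108 without the cashmere library of months 3, 6 and 9, and 0.0767, 0.0854 and 0.110 without the milk library of these months. For HSPA14 these values were 0.180, 0.142 and 0.113 without a cashmere library, and 0.160, 0.148 and 0.110 without a milk library. Without the milk library of month 12 HSPA14 was at 0.0588. The fold changes kept their sign, at -1.62 to -1.33 for DNAJC2 and 0.58 to 0.92 for HSPA14 over the 8 fits that each left out a library. With month in the model, a library left without its partner of that month no longer bears on the breed fold change. Each such fit, here and below, thus compares the breeds over the other months, whichever library of the month was left out. Among all genes, the 6 fits without a library of months 3, 6 or 9 called 0 to 4, against 675 with all 8 libraries.

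**Figure D2:**
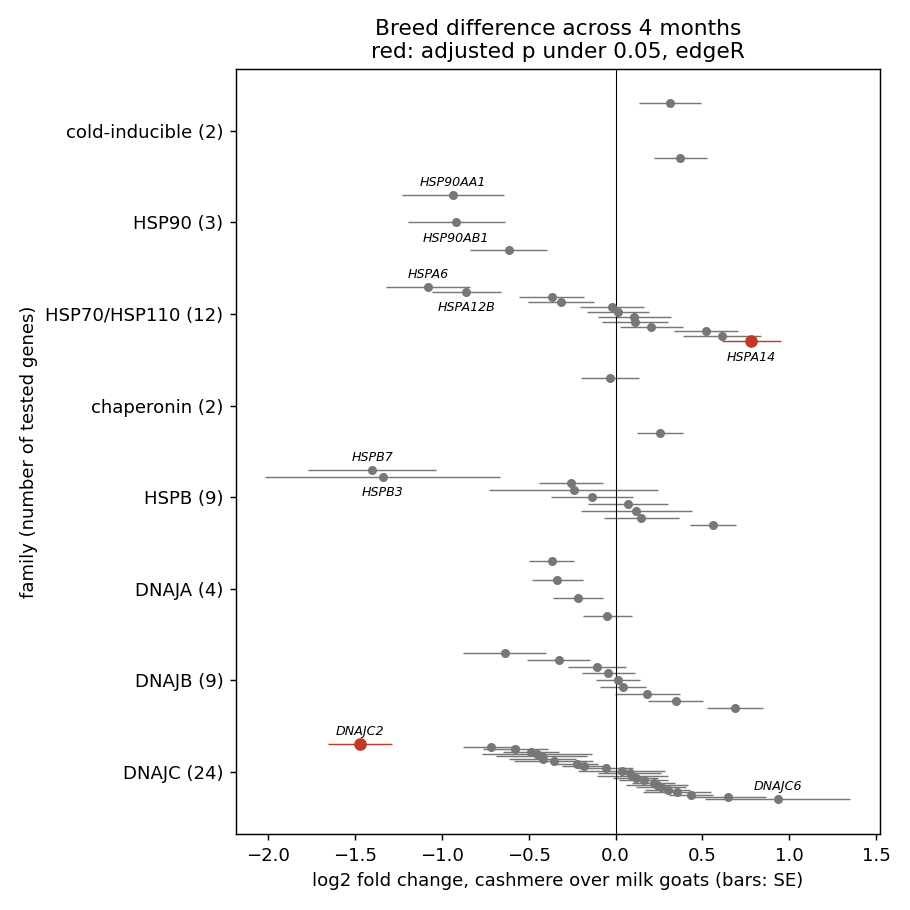
Log2 fold change of cashmere over milk goats for the 65 tested genes, by family down the page; points are fitted values and bars their SE. DNAJC2 at -1.47 and HSPA14 at 0.78 are in red, since they passed the edgeR threshold, while HSP90AA1 at -0.93 and HSP90AB1 at -0.92 did not.

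The HSP90 genes lay lower in cashmere goats in every month, without passing the test. HSP90AA1 (gene21212) had 2832, 2692, 2493 and 2455 CPM in cashmere goats at months 3, 6, 9 and 12, against 3849, 3847, 8462 and 5024 CPM in milk goats. HSP90AB1 (gene22690) had 1397, 1637, 1517 and 1682 CPM in cashmere goats, against 2128, 2331, 5328 and 2845 CPM in milk goats. In both genes the cashmere libraries were close together and the milk library of month 9 stood above the other libraries. HSP90B1 (gene5538) had 922, 1025, 1078 and 1009 CPM in cashmere goats, against 1242, 1399, 2536 and 1286 CPM in milk goats. No cashmere library reached a milk library in any of the 3 genes, but in the second count table HSP90B1 overlapped, with 1986 CPM in cashmere goats at month 9 and 1954 CPM in milk goats at month 3.

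The log2 fold changes were -0.93 ± 0.30 for HSP90AA1, -0.92 ± 0.28 for HSP90AB1 and -0.61 ± 0.22 for HSP90B1, with edgeR adjusted p = 0.105, 0.0965 and 0.138. DESeq2, which called 12.2% of all genes, called all 3 (adjusted p = 0.00245, 0.00301 and 0.0219), and limma on log2 FPKM called none. Without the milk library of month 9, which takes month 9 out of the breed comparison, the edgeR fold changes were -0.65, -0.61 and -0.40. Summed over the 3 genes, the level was 5150, 5354, 5088 and 5145 CPM in cashmere goats, against 7219, 7577, 16330 and 9155 CPM in milk goats. The highest and lowest cashmere libraries thus differed 1.05-fold, and the milk library of month 9 was 1.78-fold above the next milk library. That last ratio was 1.41 with library totals in place of TMM factors and 1.55 in the authors' FPKM, while the lowest milk library stayed above the highest cashmere library under all 5 scalings compared (1.27-fold to 1.36-fold). Of all reads of the 71 genes, the 3 HSP90 genes held 44.2% to 49.9% in cashmere goats and 58.3% to 67.8% in milk goats.

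Markers of the hair shaft and inner root sheath were also highest in the milk library of month 9. Of 24 listed, 12 were in the table, and their summed level was 22670, 55720, 60180 and 75450 CPM in cashmere goats, against 10240, 64520, 179300 and 2982 CPM in milk goats. Their maximum in milk goats fell at month 9, where HSP90 was highest, while in cashmere goats they ranged widely with HSP90 nearly level. Cell division markers summed to 465, 748, 868 and 952 CPM in cashmere goats, against 442, 594, 1152 and 351 CPM in milk goats. The part of either cell population in the HSP90 values was not tested.

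**Figure D3:**
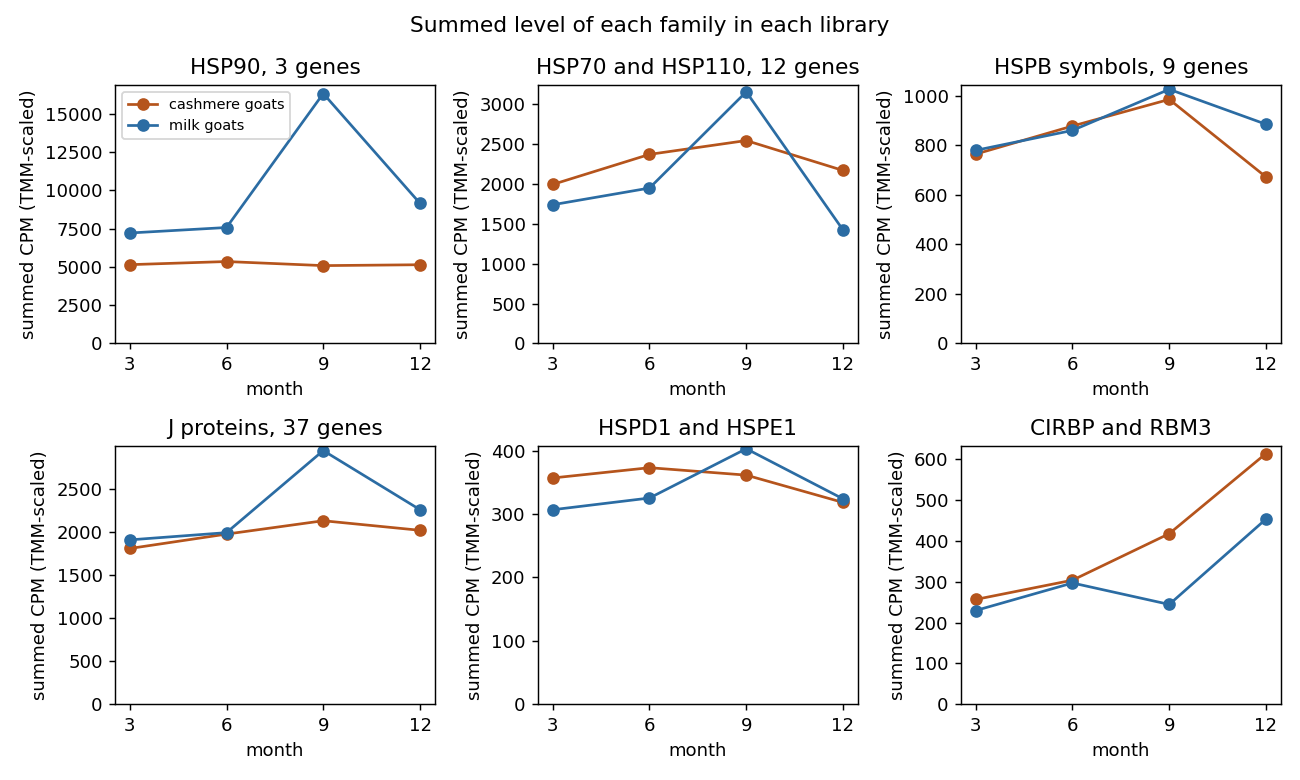
Summed CPM of each family (vertical axes, starting at 0) by month (horizontal axes) in cashmere and milk goats, 1 library per point. The HSP90 sum stays between 5088 and 5354 CPM in cashmere goats and reaches 16330 CPM in milk goats at month 9; CIRBP and RBM3 together are highest at month 12 in both breeds.

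Among the 12 genes of the HSP70 and HSP110 families, HSPA14 alone passed the breed test, 7 had a positive and 5 a negative log2 fold change, and the median was 0.06. HSPA8 (gene15441), which also strips clathrin from vesicles, had 608, 807, 844 and 566 CPM in cashmere goats at months 3, 6, 9 and 12, against 404, 473, 874 and 259 CPM in milk goats. Cashmere goats were higher in months 3, 6 and 12, and the breeds were nearly level at month 9. The log2 fold change was 0.61 ± 0.22 (edgeR adjusted p = 0.141), and limma on log2(FPKM + 1) called it at 0.0430. The second count table gave 0.37 (edgeR adjusted p = 0.363). HSPA5 had 488, 612, 638 and 556 CPM in cashmere goats, against 421, 542, 836 and 407 CPM in milk goats. Its breeds overlapped, and the log2 fold change of 0.11 ± 0.19 was within 1 SE of 0 (edgeR adjusted p = 0.743).

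HSPA2 had 131, 199.8, 224 and 199.7 CPM in cashmere goats, against 113, 180.0, 339 and 126 CPM in milk goats. The months spread more than the breeds did, and the breed fold change was 0.11 ± 0.21 on the log2 scale (edgeR adjusted p = 0.778). HSPA12B, an unusual HSP70 relative best known from endothelial cells, had 31.9, 25.1, 15.0 and 20.9 CPM in cashmere goats, against 42.1, 35.4, 32.9 and 56.3 CPM in milk goats. All 4 cashmere libraries were below all 4 milk libraries, and the log2 fold change of -0.86 ± 0.20 missed the threshold (edgeR adjusted p = 0.0549; DESeq2 0.00479). In the second count table HSPA12B was at -0.16 ± 0.18 (edgeR adjusted p = 0.590) and the breeds overlapped, with 14.2 CPM in cashmere goats and 12.9 CPM in milk goats at month 9. They also overlapped with library totals and in the authors' FPKM. The 7 endothelial markers gave 1 positive and 6 negative fold changes with a median of -0.14. They summed to 233 to 597 CPM in cashmere goats and 223 to 737 CPM in milk goats, with none at 0, and their part in the HSPA12B values was not tested.

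HSPA6, which in human is switched on almost solely by severe stress, was at 1.58 to 5.72 CPM in cashmere goats and 4.66 to 10.2 CPM in milk goats (-1.08 ± 0.24, edgeR adjusted p = 0.0519, and 0.0486 with RLE factors). It was higher at month 3 than in any later month in both breeds. Because HSPA6 is close in sequence to other HSP70 genes, reads could have been shared between them, and the value is uncertain. HSPA13, an HSP70 of the endoplasmic reticulum, had 41.9, 41.0, 49.1 and 58.7 CPM in cashmere goats, against 35.1, 36.1, 35.2 and 26.0 CPM in milk goats. Its breeds did not overlap, at 0.52 ± 0.18 and an edgeR adjusted p of 0.131. Without the milk library of month 12, and so over the other months, the fold change was 0.28. HSPA9, the HSP70 of mitochondria, averaged 298 ± 32.9 CPM in cashmere goats and 299 ± 72.4 CPM in milk goats, a log2 difference of 0.01 ± 0.18. Of the nucleotide exchangers, HSPH1 was highest at month 9 in milk goats (213 CPM, though at month 3 with library totals and in FPKM) and at month 3 in cashmere goats (147 CPM). It was lowest at month 12 in both breeds, at 82.0 CPM in cashmere goats and 80.5 CPM in milk goats.

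The J proteins were the largest family, with 37 of 43 genes tested. DNAJC2 was the only call, 18 fold changes were positive and 19 negative, and the median was -0.04. DNAJB1 (gene8211), the J protein that works with HSP70 in the heat response, had 226, 277, 326 and 264 CPM in cashmere goats at months 3, 6, 9 and 12, against 129, 203, 241 and 128 CPM in milk goats. It was higher in cashmere goats in each month, although milk goats at month 9 exceeded cashmere goats at month 3. The log2 fold change was 0.69 ± 0.16 (edgeR adjusted p = 0.0574). It was called with library totals (adjusted p = 0.0385), by DESeq2 (0.00324), by limma on log2(FPKM + 1) (0.0226) and in the second count table (0.0410).

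DNAJC21 had 166, 192, 231 and 191 CPM in cashmere goats, against 242, 229.7, 515 and 243 CPM in milk goats. The milk library of month 9 was apart, and the other 3 milk libraries lay close together. Its log2 fold change was -0.58 ± 0.19 (edgeR adjusted p = 0.112) and -0.37 without that library, and so over the other months. DNAJC6, the auxilin of clathrin uncoating, had 5.95, 12.4, 14.5 and 14.9 CPM in cashmere goats, against 4.64, 9.08, 10.9 and 2.02 CPM in milk goats. Its fold change of 0.93 ± 0.42 was the largest positive one among genes of at least 5 CPM, but it did not pass (edgeR adjusted p = 0.201) and was -0.08 in the second count table. Without the milk library of month 12, and so over the other months, it was 0.38. DNAJA1, a general cytosolic J protein, was at 41.6 to 57.0 CPM in cashmere goats and 49.6 to 81.0 CPM in milk goats, and the breeds overlapped (-0.21 ± 0.14, edgeR adjusted p = 0.363).

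Grouped by where their proteins work, the J proteins and their partners differed as follows. Of 5 J proteins linked to RNA or the nucleus, 4 had a negative fold change, as had 47.2% of all genes, and the median was -0.48. The 4 were DNAJC2, DNAJC21, and the spliceosome proteins DNAJC8 (-0.48 ± 0.16) and DNAJC17 (-0.42 ± 0.19). DNAJC9, a histone chaperone, was at 0.24 ± 0.18. In the second count table DNAJC17 was at 0.01 ± 0.20 (edgeR adjusted p = 0.971), so that 3 of the 5 were negative there. Only DNAJC2 of these passed. The 5 genes together summed to 354, 386, 475 and 437 CPM in cashmere goats, against 541, 517, 1131 and 815 CPM in milk goats. Every cashmere sum was below every milk sum, but the sums include DNAJC2, itself lower without overlap. DNAJC21, DNAJC8, DNAJC17 and DNAJC9 each overlapped between the breeds.

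The 4 genes for J proteins of vesicles and their coats were all positive: DNAJC6, GAK (its relative outside neurons), DNAJC5 (the cysteine string protein of secretory vesicles) and DNAJC13 (an endosomal protein). DNAJC6 was negative in the second count table, as given above. DNAJC5 was at 53.9 to 63.8 CPM in cashmere goats and 37.9 to 47.9 CPM in milk goats without overlap (0.44 ± 0.13, edgeR adjusted p = 0.0881). Of 11 tested genes of the endoplasmic reticulum, 7 were positive, 2 had an unadjusted p under 0.05 and 0 passed in edgeR. Of 10 mitochondrial genes, 6 were positive, 3 had an unadjusted p under 0.05 and 0 passed. Among all genes tested 52.8% were positive and 26.9% had an unadjusted p under 0.05. Within the mitochondrial group, DNAJC28 was at 11.1 to 14.0 CPM in cashmere goats and 15.0 to 23.0 CPM in milk goats without overlap (-0.72 ± 0.16, edgeR adjusted p = 0.0526). DNAJC3, which protects the endoplasmic reticulum under stress, held within 109 to 111 CPM in cashmere goats, against 86.5 to 104 CPM in milk goats.

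The mitochondrial chaperonin pair did not differ detectably between the breeds. HSPD1 had 243, 252, 224 and 199.8 CPM in cashmere goats at months 3, 6, 9 and 12, against 204, 224, 308 and 213 CPM in milk goats. The libraries overlapped, and the log2 fold change of -0.03 ± 0.17 (edgeR adjusted p = 0.926) was positive with library totals (0.09). HSPE1, whose gene is the direct protein-coding neighbour of HSPD1 in the RefSeq annotation of the goat assembly ARS1.2, had 113, 121, 137 and 118 CPM in cashmere goats, against 103, 102, 95.2 and 111 CPM in milk goats. It did not overlap between the breeds, at 0.25 ± 0.13 (edgeR adjusted p = 0.263). The highest milk library of the 4 was month 9 for HSPD1, while month 9 was the lowest for HSPE1.

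Small heat shock proteins were dominated by HSPB1 (gene24017), at 595, 640.3, 726 and 437 CPM in cashmere goats and 621, 686, 812 and 708 CPM in milk goats at months 3, 6, 9 and 12. On this scale month 9 was the highest in both breeds, and each month was lower in cashmere goats, with overlap (-0.25 ± 0.18, edgeR adjusted p = 0.406, and -0.11 without the cashmere library of month 12). Both orders depended on the scaling. In the authors' FPKM, HSPB1 was at 439 and 500.0 in cashmere goats at months 3 and 9, against 413 and 408 in milk goats, where month 9 was the lowest. HSPB8, which with BAG3 steers damaged proteins to autophagy, had 115, 158, 195 and 181 CPM in cashmere goats, against 83.7, 106, 144 and 107 CPM in milk goats. It was higher in cashmere goats in each month, with overlap between months (0.56 ± 0.13, edgeR adjusted p = 0.0554; called by DESeq2, by limma and with library totals). In the second count table HSPB8 was at 0.19 (edgeR adjusted p = 0.591) and higher in cashmere goats in 2 of the 4 months. Among 9 genes with an HSPB symbol, 0 passed with edgeR, 2 had an unadjusted p under 0.05 and 2 (HSPB7 and HSPB8) were called by DESeq2. HSPBP1, an exchange factor of HSP70, HSPBAP1, a partner of HSPB1, and HSPB11, a protein of intraflagellar transport, are not small heat shock proteins. They share the symbol only and were at 0.15 ± 0.22, 0.07 ± 0.23 and 0.12 ± 0.32. In the second count table HSPB11 was at -0.41 ± 0.19 (edgeR adjusted p = 0.207), with every cashmere library below every milk library.

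HSPB7, HSPB6, HSPB2 and HSPB3 are best known from heart, skeletal and smooth muscle. HSPB7 had 1.60, 1.68, 2.06 and 2.11 CPM in cashmere goats, against 3.66, 4.39, 2.76 and 11.9 CPM in milk goats. No cashmere library reached a milk library, and the milk library of month 12 was the highest by far (-1.40 ± 0.37, edgeR adjusted p = 0.0717). HSPB6 overlapped between the breeds, at 24.8 to 50.9 CPM in cashmere goats and 21.7 to 51.1 CPM in milk goats (-0.14 ± 0.23). Its fold change was 0.36 ± 0.395 in the second count table (edgeR adjusted p = 0.581). HSPB2 was at 1.18 to 5.15 CPM in cashmere goats and 2.02 to 6.51 CPM in milk goats, and HSPB3 had 0 to 8 reads in a cashmere library and 11 to 25 in a milk library. Muscle markers were also lower in cashmere goats: all 13 tested had a negative fold change, with a median of -0.75, and DES, LMOD1 and SYNM passed. They summed to 2909, 2389, 1741 and 1995 CPM in cashmere goats, against 4657, 3043, 3451 and 4305 CPM in milk goats. The skeletal muscle gene MYL1 was at 0 in some library. The part of muscle in these values was not tested.

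Without overlap between the breeds, 5 of the 65 genes were higher in cashmere goats (7.69%, against 6.46% of all genes): HSPE1, DNAJC16, DNAJC3, DNAJC5 and HSPA13. Another 10 were lower without overlap (15.4%, against 8.02% of all genes): DNAJA2, DNAJA3, DNAJC14, DNAJC2, DNAJC28, HSPA12B, HSPB7 and the 3 HSP90 genes. In the second count table DNAJC5 and HSPA13 of the 5 were without overlap, and DNAJC2, DNAJC28, HSP90AA1 and HSP90AB1 of the 10. There DNAJA2 (0.06) and DNAJA3 (0.14) had the other sign, and HSPE1 and HSPB7 were not listed by symbol. In the authors' FPKM the 5 were without overlap as well, but of the 10 only DNAJC2 and the 3 HSP90 genes. The balance of directions turned with the scaling. Counted anew, 10 of the 65 were higher and 4 lower without overlap in FPKM, and 8 higher and 6 lower with library totals. The shares of all genes given here are for the TMM scale and were not counted on the other scales. The median breed fold change of all genes also rose with those scales, as given at the end. The turn therefore cannot be read as a trait of these genes. Within single months, 1 library against 1 library and without a test, 30, 37, 27 and 34 of the 65 genes were higher in cashmere goats at months 3, 6, 9 and 12 (46.2%, 56.9%, 41.5% and 52.3%, against 52.2%, 50.4%, 54.7% and 48.9% of all genes). At least 2-fold lower in cashmere goats were 3, 3, 8 and 9 genes (4.62%, 4.62%, 12.3% and 13.8%, against 3.08%, 2.91%, 6.06% and 10.9% of all genes). At least 2-fold higher were 0 genes at months 3, 6 and 9 (0%, against 3.88%, 2.32% and 5.29% of all genes), and 5 at month 12 (7.69%, against 9.68%): DNAJB1, DNAJC6, HSPA13, HSPA14 and HSPA8. DNAJC2 was at least 2-fold lower in each of the 4 months.

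Both cold-inducible genes were highest at month 12, in cashmere goats and in milk goats alike. CIRBP (gene7595) had 158, 159, 194 and 309.5 CPM in cashmere goats at months 3, 6, 9 and 12, against 132, 152, 119 and 226 CPM in milk goats. RBM3 (gene27713) had 98.7, 145, 224 and 304 CPM in cashmere goats, against 97.6, 145, 126 and 228 CPM in milk goats. For RBM3 each later month was higher than the one before in cashmere goats, whereas in milk goats month 9 was below month 6. In the second count table milk goats were at 176.5 CPM at month 6 and 188 CPM at month 9, so that month 9 was above month 6 there as well. The breeds were nearly level in RBM3 at months 3 and 6 and apart at months 9 and 12.

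Month 12 exceeded the next highest month 1.60-fold for CIRBP among cashmere libraries, and among milk libraries 1.49-fold. The step for RBM3 was 1.36-fold in cashmere libraries, and 1.57-fold in those of milk goats. Month 12 stayed the highest month for both genes in both breeds under RLE factors, library totals, the authors' FPKM and the second count table, with a step of 1.30-fold to 1.76-fold over these. A maximum at month 12 in both breeds was found for 4 of the 65 genes (6.15%, against 6.23% of all genes), and the other two were DNAJB12, a J protein of the endoplasmic reticulum membrane, and HSPB7. DNAJB12 was not highest at month 12 in cashmere goats in the second count table, which does not list HSPB7 by symbol. In the authors' FPKM, HSPB7 was level in cashmere goats at months 9 and 12, at 0.57 in each. The breed difference of the pair was 0.37 ± 0.15 for CIRBP and 0.32 ± 0.18 for RBM3, and neither passed (edgeR adjusted p = 0.176 and 0.294). RBM3 was at 0.15 without the cashmere library of month 9, and so over the other months.

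**Figure D4:**
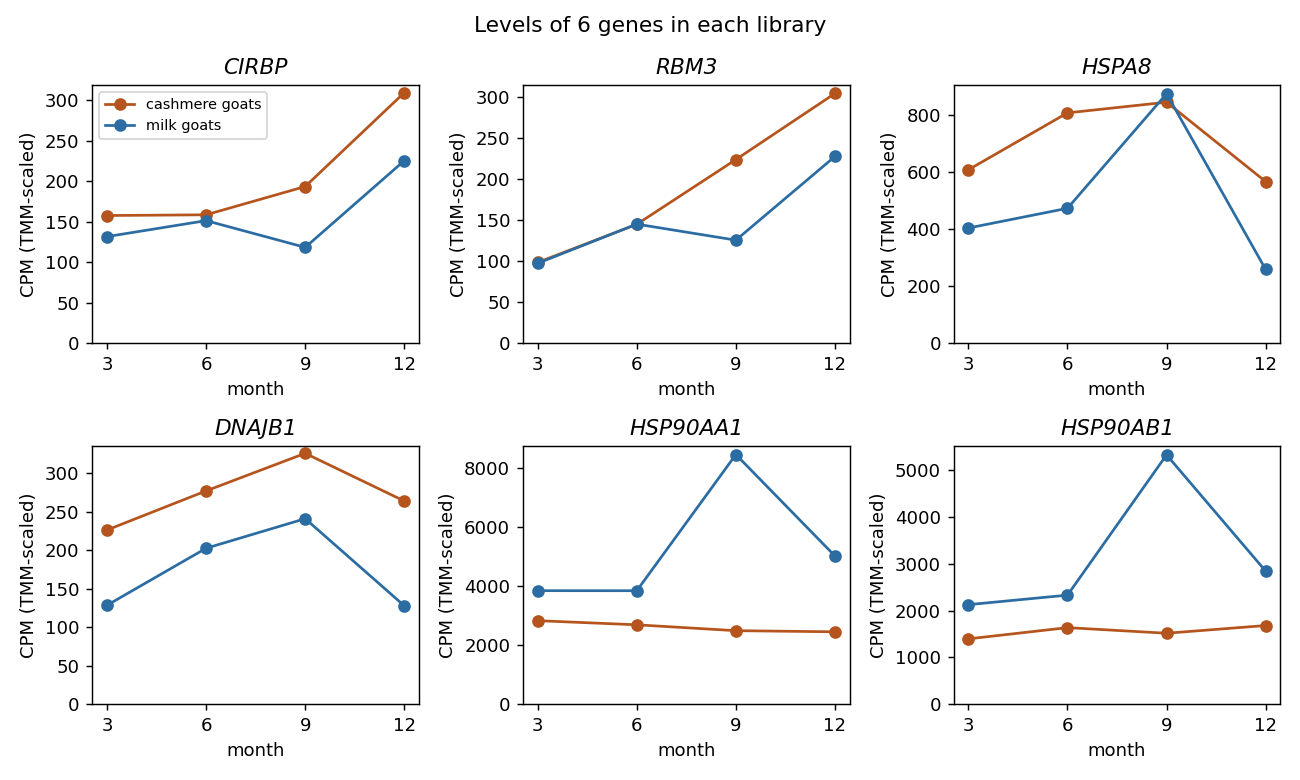
CPM (vertical axes, starting at 0) of CIRBP, RBM3, HSPA8, DNAJB1, HSP90AA1 and HSP90AB1 by month (horizontal axes) in cashmere and milk goats, 1 library per point. CIRBP and RBM3 peak at month 12 in both breeds, HSPA8 at month 9 in both, DNAJB1 at month 9 in both on this scale but at month 6 in milk goats with library totals and in FPKM, and the 2 HSP90 genes reach 8462 and 5328 CPM in milk goats at month 9.

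The second comparison asked whether levels differed among the 4 months over both breeds. By edgeR 0 of 65 and 0 of all 14085 genes passed (0%), and limma called 0 of the 65. At an unadjusted p under 0.05 were 14 of 65 (21.5%, against 13.4% of all genes). Among these, RBM3 came first, with an unadjusted edgeR value of 0.00425 (edgeR adjusted p = 0.324), and CIRBP had 0.0116 (edgeR adjusted p = 0.331). DESeq2 called 6 of the 65 (9.23%, against 3.81% of all genes): RBM3 (adjusted p = 0.000794), CIRBP (0.0137), DNAJC2, HSPA8, HSPA2 and HSPA12A, an HSP70 relative that was highest at month 3 in both breeds. Month 12 against month 6 gave 0.85 ± 0.25 on the log2 scale for RBM3 and 0.76 ± 0.22 for CIRBP (edgeR adjusted p = 0.583 for both).

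In that contrast edgeR called 0 of 65 and 0 of all genes (0%), and 5 of 65 had an unadjusted p under 0.05 (7.69%, against 7.60% of all genes). Besides RBM3 and CIRBP these were DNAJC2 (0.93 ± 0.25), HSPA12A (-0.62 ± 0.26) and HSPB6 (-0.93 ± 0.33). DESeq2 and limma called 0 of the 65. The sum of 7 markers of dermal fibroblasts, most of it collagen, was lowest at month 12 in both breeds. All 7 were tested and none was at 0, and they summed to 8794, 33510, 5284 and 2456 CPM in cashmere goats at months 3, 6, 9 and 12, against 19400, 12310, 9438 and 2372 CPM in milk goats. The collagens COL1A1, COL1A2 and COL3A1 and the matrix protein LUM were lowest at month 12 in both breeds. In milk goats, however, DCN was highest at month 12 (1046 CPM, against 470 to 829 CPM in the other months), and FBLN1 and PDGFRA were lowest at month 9 (102.5 and 94.2 CPM). Their part in the month 12 values of CIRBP and RBM3 was not tested.

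A further contrast set months 6 and 9 against months 12 and 3. In it 42 of 65 genes were positive (64.6%, against 48.2% of all genes), and edgeR called 0 of 65 and 0 of all genes (0%). With library totals in place of TMM factors, 13 of the 65 turned sign, all from positive to negative. None of these was at 0.3 or more in the TMM fit, and the share of all genes given here is for that fit only. At an unadjusted p under 0.05 were 9 of 65 (13.8%, against 15.5%), 8 of them positive (12.3%, against 8.78%). Positive were 9 of the 12 HSP70 and HSP110 genes, with a median of 0.21, and 23 of the 37 J proteins, with a median of 0.06. HSPA8 was at 0.75 ± 0.22, HSPA2 at 0.73 ± 0.21, HSPA14 at 0.58 ± 0.17, DNAJB1 at 0.54 ± 0.16, DNAJC7, a J protein that also binds HSP90, at 0.54 ± 0.20, and HSPA5 at 0.49 ± 0.19 (edgeR adjusted p = 0.228 to 0.295). Within breeds, 40 of 65 genes were positive in cashmere goats (61.5%, against 51.7% of all genes) and 43 in milk goats (66.2%, against 47.2%). Without the cashmere library of month 12, 8 of the 65 passed (1926 of all genes, 13.4%): HSPA14, DNAJB1, HSPA8, HSPA2, DNAJC7, DNAJC6, HSPA12B and HSPB2. In the other 7 fits that left out a library 0 of the 65 passed. Without the milk library of month 9 the fold changes were 0.51 for HSPA8, 0.47 for HSPA2, 0.31 for HSPA5 and 0.29 for DNAJC7, and over the 8 fits the edgeR adjusted p of the 6 named genes reached 0.652 to 0.693. DESeq2 on all 8 libraries called HSPA8 alone (adjusted p = 0.0359; 1.54% of 65, against 2.44% of all genes), and limma called none.

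Markers of several cell populations moved with the same contrast. Hair shaft and inner root sheath markers were positive in 12 of 12 (median 2.13) and cell division markers in 15 of 15 (median 0.61), while endothelial markers were negative in 7 of 7 (median -0.55). For month 9 against month 3 the first 2 lists were positive in 12 of 12 and 15 of 15 as well, with medians of 2.48 and 1.10, and their sums in each library are given with the HSP90 genes. Their part in the values of the chaperone genes was not tested.

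Month 9 against month 3 gave 44 of 65 positive fold changes (67.7%, against 49.9% of all genes). Under library totals 17 of the 65 turned sign, all from positive to negative and none at 0.3 or more in the TMM fit. By edgeR 0 of 65 and 0 of all genes passed (0%), and 16 of 65 had an unadjusted p under 0.05 (24.6%, against 23.6%). The largest positive changes among the 16 were HSPA2 at 1.22 ± 0.30, DNAJC7 at 1.18 ± 0.29 and HSPA14 at 1.01 ± 0.24, and HSPA12A was the largest negative one at -1.20 ± 0.27 (edgeR adjusted p = 0.111 to 0.119). RBM3 was at 0.79 ± 0.25 (edgeR adjusted p = 0.134; DESeq2 0.0469). DESeq2 called 8 of the 65 (12.3%, against 7.86% of all genes). Without the cashmere library of month 12 edgeR called 7 (10.8%, against 14.1% of all genes), and without the milk library of month 12 it called 8 of 64 (12.5%, against 13.7%), each time including HSPA14, DNAJB1, HSPB8, DNAJC7, HSPA2 and HSPA12A. In the other 6 such fits it called 0, and without the milk library of month 9 the fold changes were 0.67 for HSPA2, 0.64 for DNAJC7, 0.73 for HSPA14 and -0.93 for HSPA12A.

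In milk goats the month 9 library held the highest level for 33 of the 65 genes (50.8%, against 30.3% of all genes). With library totals in place of TMM factors it was 18 (27.7%, against 11.7%), and in the authors' FPKM 20 (30.8%, against 12.5%). In cashmere goats month 9 was the highest for 18 of 65 (27.7%, against 27.3% of all genes). The 11 genes highest at month 9 in both breeds (16.9%, against 12.2%) were HSPA8, HSPA5, HSPA2, HSPA14, HSP90B1, HSPB1, HSPB8, DNAJB1, DNAJC7, DNAJC8 and DNAJC21. With library totals and in the authors' FPKM the list was 8 genes, without DNAJB1, HSPB1 and DNAJC8. In the second count table DNAJB1, HSPB1, HSPB8 and DNAJC8 were not on it. Lowest at month 12 in both breeds were 8 genes (12.3%, against 5.12% of all genes), among them HSPA8, HSPH1 and DNAJA1. Whether the course over months differed between breeds was tested with a model of breed and a 12-month cycle. EdgeR called 0 of 65 and 0 of all genes (0%), and 3 of 65 had an unadjusted p under 0.05 (4.62%, against 6.42%). These were DNAJC12, a partner of aromatic amino acid hydroxylases, DNAJC1, an endoplasmic reticulum J protein, and DNAJB2, a J protein best known from neurons. DESeq2 and limma called 0 of the 65.

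The regulators and partners of these chaperones were followed through lists of other genes. For the breed effect, 0 of 5 tested heat shock factors and binding partners passed in edgeR, and 1 had an unadjusted p under 0.05 (26.9% of all genes had, also for the lists that follow). HSF1 was at 14.6 to 19.1 CPM in cashmere goats and 16.7 to 23.3 CPM in milk goats, and HSBP1, which binds HSF1, at 221 to 265 CPM in cashmere goats and 257 to 346 CPM in milk goats. Of 26 tested co-chaperones of HSP70 and HSP90, 0 passed in edgeR and 3 had an unadjusted p under 0.05. PTGES3 (p23, which holds HSP90 closed on its client) averaged 298 ± 33.6 CPM in cashmere goats and 262 ± 13.4 CPM in milk goats. FKBP4, a peptidyl-prolyl isomerase bound to HSP90, averaged 222 ± 27.6 CPM in cashmere goats and 228 ± 52.5 CPM in milk goats. The 14 genes of the CCT chaperonin and prefoldin, which fold actin and tubulin, gave 0 calls in edgeR and 2 genes with an unadjusted p under 0.05. TCP1, a CCT subunit, averaged 246 ± 22.6 CPM in cashmere goats and 213 ± 27.2 CPM in milk goats.

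In the unfolded protein response, 1 of 24 tested genes passed, while 4.79% of all genes did. DDIT3, the stress-induced factor CHOP, had 36.5, 28.9, 26.9 and 35.0 CPM in cashmere goats at months 3, 6, 9 and 12, against 64.5, 54.9, 78.1 and 116 CPM in milk goats. Every cashmere library was below every milk library (-1.25 ± 0.18, edgeR adjusted p = 0.0276). CALR, a chaperone of glycoproteins in the endoplasmic reticulum, followed HSP90B1 in milk goats, with 750, 847, 770.1 and 704 CPM in cashmere goats, against 951, 1145, 2135 and 973 CPM in milk goats. Its breeds did not overlap, yet it missed the threshold (-0.67 ± 0.24, edgeR adjusted p = 0.136). CRYAB, a small heat shock protein by another name, averaged 340 ± 75.5 CPM in cashmere goats and 294 ± 123 CPM in milk goats.

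Immediate early genes, which rise within minutes of handling or stress, gave 2 calls of 25 tested, while 4.79% of all genes were called. DUSP1 was at 33.4 to 77.8 CPM in cashmere goats and 22.7 to 33.0 CPM in milk goats, and ZFP36 at 65.0 to 119 CPM in cashmere goats and 40.9 to 67.2 CPM in milk goats. The median fold change of the 25 was 0.51, and they summed to 2663, 3599, 3226 and 3925 CPM in cashmere goats, against 2540, 2914, 3257 and 3153 CPM in milk goats. Of 15 tested heat-inducible chaperone genes, 6 had a positive and 9 a negative fold change (52.8% of all genes were positive), with a median of -0.03. The part of handling in these values was not tested. Of 7 tested genes on a list for temperature sensing and heat production, 0 passed in edgeR and 1 had an unadjusted p under 0.05. The list also held genes of other roles, such as SRSF5 and RTN3, while UCP1, UCP3, TRPM8 and TRPC5 were at 0 in some library. SRSF5, a splicing factor on that list, was highest at month 12 in both breeds, at 299.5 CPM in cashmere goats and 337 CPM in milk goats. RTN3, a reticulon of the endoplasmic reticulum, averaged 265 ± 46.9 CPM in cashmere goats and 245 ± 25.4 CPM in milk goats.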

How the data were processed

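Per the labels' protocols, polyadenylated RNA of skin was made into directional libraries and sequenced in pairs. The submitters' processing notes name Bowtie2. Not given in the sources used here are its role and version, the genome build and the strand setting of the counting, so no coordinates are printed, and overlapping or antisense genes cannot be told apart. The authors deposited raw read counts per gene for 18815 genes, FPKM for the same genes, and raw read counts for another set of 20780 genes, matched here by symbol. The word for cashmere in some headers is a transliteration; each of the 8 columns of the second table matched best the first table's column of the same breed and month, over 12931 shared symbols.

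Counts of the first table were tested in R 4.3.3 with edgeR 4.0.16 (filterByExpr on breed, TMM, quasi-likelihood F tests). The model held month and breed, so that month paired the libraries, with 3 residual degrees of freedom, and 2 for breed by season. P-values were adjusted by Benjamini-Hochberg over all 14085 genes tested, with a threshold of 0.05. Log2 CPM used a prior count of 2. Alternatives were DESeq2 1.42.0, limma 3.58.1 on log2(FPKM + 1) and log2(FPKM + 0.1), other scalings and filters, the second count table, a model without the block and leaving out each library. The fits were tested on simulated data. Genes, lists and tests were chosen with earlier results of these data known. The genes given in full were CIRBP, RBM3, genes past the threshold, the most abundant of each family and the 10 most abundant, the 6 widest in range and the 3 largest breed changes each way at 5 CPM or more. Other genes with values were named after their values were seen.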

Additional observations from a re-analysis of the deposited data

Results flagged for a closer look

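Of 34 groups of 4 libraries looked at (17 genes in each breed), 2 held a library far from the other 3, and chance gives about 1 in 20. DNAJC21 stood at 515 CPM in milk goats at month 9, while the nearest milk library was at 243 CPM. HSP90B1 stood at 2540 CPM in the same library, while the nearest milk library was at 1400 CPM. The other genes with their maximum there, and the hair shaft, inner root sheath and cell division markers of that library, are given with the HSP90 results.

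The second count table holds 5 genes of these families that the comparisons above did not use. DNAJB13 and HSPB9 had 0 to 4 and 0 to 1 reads in any library, and the other 3 had more than 3 reads in every library. HSPA1A, the classical heat-inducible HSP70, had a median of 28153 reads over the 8 libraries. It was at 1266, 1249, 1045 and 1087 CPM in cashmere goats at months 3, 6, 9 and 12, against 1997, 1536, 2577 and 1759 CPM in milk goats. Every cashmere library was below every milk library, and the log2 fold change of -0.74 ± 0.23 missed the threshold (edgeR adjusted p = 0.0874). HSPA1L, its close relative, had a median of 251 reads (10.7 to 13.0 CPM in cashmere goats and 11.7 to 18.0 CPM in milk goats). DNAJC25, a J protein of the endoplasmic reticulum, had a median of 544 reads and was at -0.57 ± 0.21 on the log2 scale (edgeR adjusted p = 0.121). HSPA1A, HSPA1L and HSPA6 are related in sequence, and how reads were divided among them was not tested.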

How the results depend on the processing

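The breed effect called 2 of the genes. It called 4 with library totals (3 higher; 4.39% of all genes called), 5 with no filter and 4 with a stricter filter (1 higher each; 4.72% and 5.50% of all), 12 with DESeq2 (3 higher; 12.2% of all), 6 with limma on log2(FPKM + 1) and 6 with log2(FPKM + 0.1) (5 higher each; 9.76% and 8.24% of all). With RLE factors it called 2 (DNAJC2 and HSPA6, 4.81% of all), and HSPA14 was lost. Leaving out a library gave 0 to 2, and the model with no replicate block, which drops the pairing by month, gave 1 (DNAJC2). These scalings moved the median of all genes: it was 0.03 in the reported fit, 0.14 with library totals, 0.16 with log2(FPKM + 1) and 0.23 with log2(FPKM + 0.1). The block changed no call in the month contrasts. Calls by month were 0. They were 6 with DESeq2 and 0 to 2 without a library for the month effect, 1 with DESeq2 and 0 to 8 without a library for months 6 and 9 against 12 and 3, 8 with DESeq2 and 0 to 8 without a library for month 9 against month 3, and 0 to 1 without a library for month 12 against month 6. Breed by season stayed at 0 in the alternatives run. The count highest at month 9 in milk goats, 33, was 18 with library totals and 20 in FPKM. These 2 scalings were added after the data were seen.

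The breed fold change turned sign in 16 of 61 genes with the second count table, 6 of 65 with library totals, 9 of 65 with limma on log2(FPKM + 1), 3 with no replicate block and 0 with RLE factors and DESeq2. Of these genes, 7 were at 0.3 or more in either direction, all in the second table. Those given in full that turned follow. HSPD1, at -0.03, was 0.0857 with library totals, 0.18 with limma on log2(FPKM + 1) and on log2(FPKM + 0.1), 0.0942 in the second count table and -0.14 to 0.12 without a library. HSPA5, at 0.11, was -0.0241 to 0.29 without a library. HSPA2, at 0.11, was -0.10 to 0.35 without a library and -0.0068 with no replicate block. DNAJC6, at 0.93, was -0.0807 in the second count table. The cause was not tested. With 4 libraries per breed and 1 per month, differences within a month have no replicate check.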
